A study of Homo sapiens with 3 samples.

Results

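The sites described here are the HA-PRCC-TFE3 ChIP-seq peaks on chromosomes 3, 5 and 20 of HK-2 cells, divided into 6 chromosome arms. A peak was assigned to the short arm (p) or the long arm (q) by its middle, with the boundary set at 91.0 Mb on chromosome 3, 48.4 Mb on chromosome 5 and 27.5 Mb on chromosome 20 in build hg19. The narrowPeak lists placed 15762 of 109205 peaks of replicate 1 and 11418 of 81300 peaks of replicate 2 on these chromosomes, which is 14.43% and 14.04%. The BED lists, which also give tag counts, placed 12259 of 84248 and 9173 of 63535 peaks there. The input DNA list placed 33 of 286 peaks there. Each boundary lay within the widest stretch of its chromosome that held no peak, from 3.26 Mb to 3.82 Mb wide, so that moving it within that stretch changed the arm of no peak.

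All samples came from an HA-PRCC-TFE3-inducible derivative of HK-2, an established line of immortalised human renal proximal tubule cells. The cells received 0.2 µg/mL doxycycline for 24 h, which switches on the tagged fusion of PRCC with the transcription factor TFE3. After digestion of the chromatin with micrococcal nuclease, fragments bound by the fusion were pulled down by its HA tag in 2 replicates, and 1 library was made from input DNA, which was not pulled down. Uninduced cells were not analysed here. The study describes the 2 ChIP replicates as biological replicates, and the labels do not say whether these came from separate cultures.

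TFE3 belongs to the MiT/TFE family of basic helix-loop-helix leucine zipper proteins, which bind E-box and related motifs near genes of lysosomes, autophagy and energy metabolism. In renal cancer, the short arm of chromosome 3 is known for the tumour suppressors *VHL*, *PBRM1*, *SETD2* and *BAP1*, and its loss together with gain of 5q is a frequent event in the clear cell form. The number of reads at a site depends on how well a factor holds it, but also on how much DNA of that stretch the cell carries and how well that DNA is cut and mapped, and input DNA is the usual measure of the latter. The question here was how input and ChIP values varied from arm to arm. Copy number itself was not measured in these samples, and its part in any difference below was not tested.

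The ChIP libraries held 12235754 tags in replicate 1 and 7418533 tags in replicate 2, as recovered from the lists, and the input library held about 21698071 tags by the first list and 21691791 by the second. Input tags were available only at the ChIP peaks, once for each BED list. Both lists read the same input library, so their agreement is not a replication of the input. Intervals are exact 95% intervals for counts and cover counting error only. A ratio of arms is called different where its interval excluded 1 in the lists of both replicates. Peaks of an arm are not replicates of a condition, and no test over samples was possible with 1 input library.

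Input DNA separated the arms (shown in the plot of input tags by arm). At the peaks of replicate 1, the mean number of input tags per peak was 0.547 on 5q (95% interval, 0.519 to 0.575), 0.556 on 3p (0.523 to 0.592) and 0.873 on 5p (0.814 to 0.934). It was 1.16 on 3q (1.12 to 1.19), 1.31 on 20q (1.26 to 1.37) and 1.45 on 20p (1.39 to 1.53). At the peaks of replicate 2 the values in the same order were 0.557, 0.579, 0.862, 1.14, 1.33 and 1.45, against 0.874 and 0.876 over all peaks of the 2 lists. The order of the arms was therefore the same at both sets of peaks, with 5q and 3p at the bottom and chromosome 20 at the top.

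**Figure D1:**
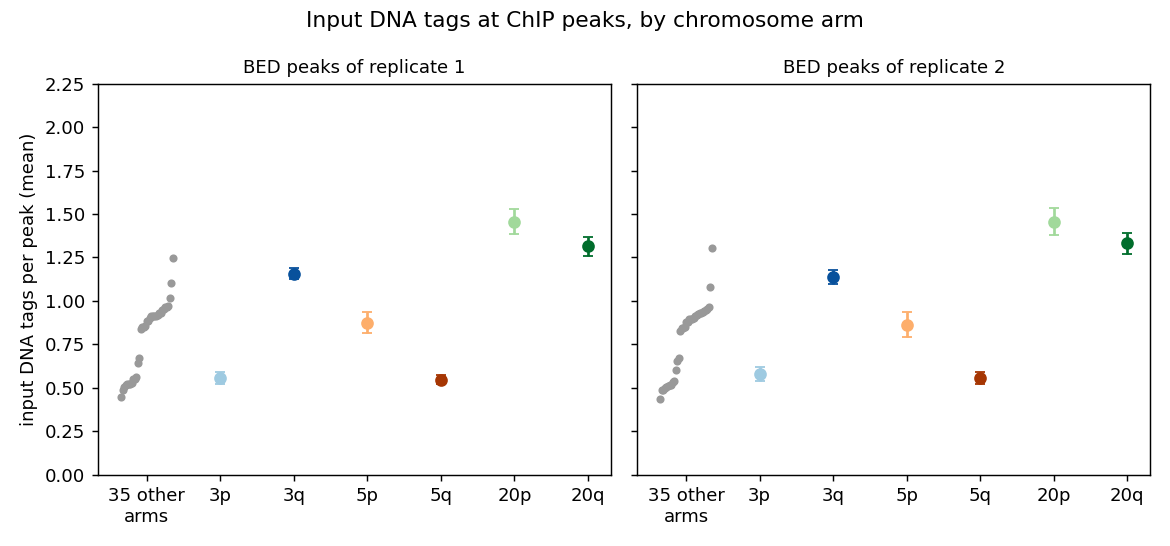
Mean input DNA tags per BED peak (y axis) for the 6 arms, with exact 95% counting intervals, and for 35 other arms or whole acrocentric chromosomes (grey, sorted), at the peaks of replicate 1 (left) and replicate 2 (right). Arms 3p and 5q lie near 0.56, 5p near 0.87, 3q near 1.15, and 20q and 20p above every grey point.

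The 5 pairs of neighbours in this order were then set side by side. The order came from the same input values, so the direction of each ratio was fixed in advance. The intervals do not allow for that choice of pairs. Arms 3p and 5q did not differ beyond counting error, with a ratio of 3p to 5q of 1.02 (0.939 to 1.10) in replicate 1 and 1.04 (0.948 to 1.14) in replicate 2. Arm 5p exceeded 3p by a ratio of 1.57 (1.43 to 1.72) and 1.49 (1.34 to 1.66). Arm 3q exceeded 5p by 1.33 (1.23 to 1.43) and 1.32 (1.21 to 1.44), and 20q exceeded 3q by 1.14 (1.08 to 1.19) and 1.17 (1.11 to 1.24). The step from 20q to 20p was the smallest of those called, at 1.11 (1.04 to 1.18) and 1.09 (1.02 to 1.17).

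Within chromosomes, the long arm of chromosome 3 carried about 2 times the input of its short arm, with ratios of 2.08 (1.94 to 2.23) and 1.96 (1.81 to 2.12). Chromosome 5 had the opposite order, with long to short ratios of 0.627 (0.575 to 0.683) and 0.645 (0.583 to 0.715). On chromosome 20 the long arm was slightly lower, at 0.903 (0.847 to 0.963) and 0.915 (0.852 to 0.983). The size of these steps rests on reading as 0 the constant of 0.5 tag that the lists hold at peaks without input. In the scaled input column as deposited, which keeps that constant and holds rounded values, the mean per peak was 0.504 on 3p and 0.764 on 3q in replicate 1 and 0.306 and 0.450 in replicate 2, so that the long to short ratio was 1.52 and 1.47. The ratios in that column were 0.776 and 0.788 on chromosome 5 and 0.919 and 0.922 on chromosome 20, in the same direction but nearer to 1 on each chromosome. The chromosome 20 difference was the only one of these 3 that did not hold under every alternative. Without the 10 Mb window with the most input tags in each arm, its mean ratio over both lists was 0.958 and it was no longer called.

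The share of peaks with no input tag at all gave the same picture. In replicate 1, 61.0% of peaks on 3p and 58.8% on 5q had no input tag, compared with 45.1% on 5p, 34.6% on 3q, 29.4% on 20q and 26.9% on 20p. In replicate 2 these shares were 59.7%, 59.1%, 46.5%, 36.5%, 29.4% and 28.4%. Conversely, peaks with 3 or more input tags made up 2.44% of 3p and 2.58% of 5q but 15.4% of 20q and 19.6% of 20p in replicate 1. The arms thus differed at both ends of the range of input values, in shares that count each peak once. The variance of input tags between peaks was 1.08 to 1.26 times the mean on 5 of the arms and at least 1.83 times the mean on 3p, where 1 region with 30 input tags in replicate 1 and 24 in replicate 2 stood apart (chr3:73159844-73160070).

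The 6 arms spanned most of the range seen in this genome. All chromosomes from 1 to 22 and X were treated in the same way. The 18 with a pair of arms were divided at their widest stretch between peaks and the 5 acrocentric ones left whole, which gave 41 units. Among these, 20p ranked 1st and 20q 2nd from the highest for input tags per peak in both lists, and 3q ranked 4th. Arm 5p ranked 22nd in both lists, 3p ranked 30th, and 5q ranked 33rd and 31st. The other arms ran from 0.446 on chromosome 13 to 1.24 on 10q in replicate 1, and from 0.435 to 1.31 on the same chromosomes in replicate 2. Relative to the median chromosome, 3p stood at 0.642 and 0.667 and 5q at 0.631 and 0.641. On the same scale 5p stood at 1.01 and 0.993, 3q at 1.33 and 1.31, 20q at 1.51 and 1.53, and 20p at 1.68 and 1.68. Only chromosome 10 had a larger step between its arms than chromosome 3, with ratios of 2.42 and 2.54, among these 18 chromosomes. Chromosome 5 ranked 4th in this respect and chromosome 20 ranked 9th and 11th.

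To see whether an arm was even or stepped, each was cut into windows of 10 Mb counted outwards from the boundary, and windows with fewer than 20 peaks were left out. The 9 windows of 3p ranged from 0.451 to 0.785 input tags per peak in replicate 1 and from 0.457 to 0.918 in replicate 2. The 11 windows of 3q ranged from 1.02 to 1.34 and from 0.939 to 1.34. No window of 3p reached the lowest window of 3q in either list. The highest window of 3p, 10 to 20 Mb from the boundary, contained the region with 30 and 24 input tags, and without that region it had 0.567 and 0.643 input tags per peak, close to the rest of its arm. The step was present in the windows next to the boundary. Within 10 Mb of it, input tags per peak were 0.621 over 66 peaks of 3p and 1.17 over 242 peaks of 3q in replicate 1, a ratio of 1.89 (1.36 to 2.69). In replicate 2 they were 0.644 and 1.17, a ratio of 1.82 (1.23 to 2.79).

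Chromosome 5 showed the reverse step. Its 5 short arm windows ranged from 0.812 to 1.10 in replicate 1 and from 0.690 to 1.13 in replicate 2, and its 14 long arm windows from 0.454 to 0.814 and from 0.406 to 0.754. The ranges overlapped only through the outermost window of 5q, which had 0.814 and 0.754 input tags per peak over 70 and 57 peaks. Beside the boundary, 5p had 0.843 and 5q 0.537 input tags per peak in replicate 1, a ratio of 0.638 (0.493 to 0.821), and 0.859 and 0.588 in replicate 2, a ratio of 0.684 (0.507 to 0.921).

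Chromosome 20 was high on both sides. Its 3 short arm windows ranged from 1.33 to 1.58 and from 1.34 to 1.60, and its 4 long arm windows from 1.25 to 1.35 and from 1.25 to 1.44. No step was detectable at the boundary, where the long to short ratio within 10 Mb was 0.980 (0.867 to 1.11) and 0.977 (0.851 to 1.12). The outermost window of 20p was the highest of the chromosome, at 1.58 (1.47 to 1.70) and 1.60 (1.48 to 1.73). The outermost window likewise had the highest value of its arm on 5p, with 1.10 and 1.13, and on 5q.

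**Figure D2:**
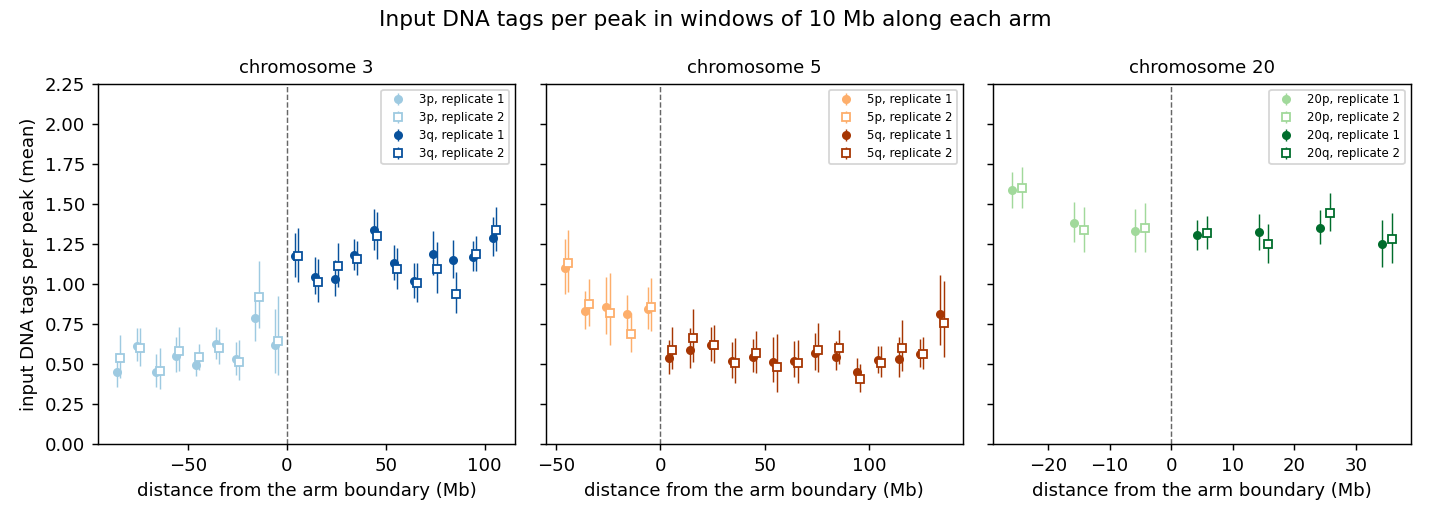
Mean input DNA tags per BED peak (y axis, with exact 95% counting intervals) in windows of 10 Mb against the distance from the arm boundary (x axis, Mb, short arm to the left), for replicate 1 (filled circles) and replicate 2 (open squares). Chromosome 3 steps up and chromosome 5 steps down at the dashed boundary, whereas chromosome 20 stays above 1.2 input tags per peak on both sides.

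Input at a peak can depend on how the peak was chosen, because no BED peak had a fold over input below 4.05 in replicate 1 or 4.02 in replicate 2. A site with few ChIP tags could then enter the list only with few input tags. Peaks were therefore grouped into 4 classes by their ChIP tags, with the same limits on every arm. Among replicate 1 peaks with 12 to 16 ChIP tags, input tags per peak were 0.637 on 3p, 0.612 on 5q, 0.949 on 5p, 1.44 on 3q, 1.67 on 20q and 1.76 on 20p. Among those with 27 or more ChIP tags they were 0.347, 0.381, 0.534, 0.823, 0.948 and 1.15 in the same order. In replicate 2, peaks with 20 or more ChIP tags had 0.380, 0.382, 0.572, 0.831, 0.911 and 1.09. The level was lowest in the class of the strongest peaks on each arm, but 3p and 5q stayed below 5p, 5p below 3q, and 3q below chromosome 20 in all 4 classes of both lists.

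**Figure D3:**
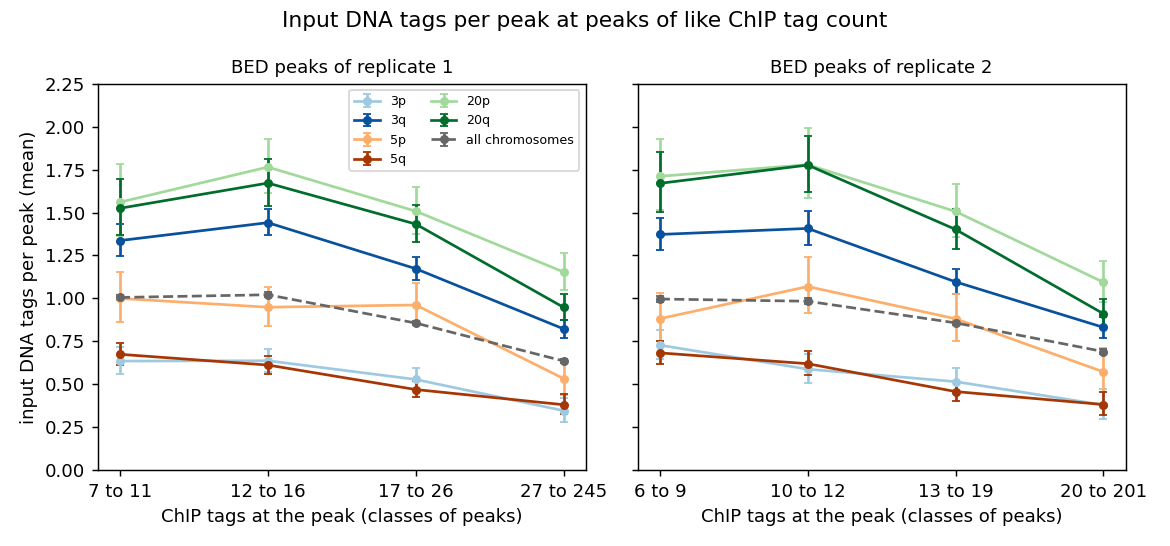
Mean input DNA tags per BED peak (y axis, with exact 95% counting intervals) in 4 classes of ChIP tags at the peak (x axis), for the 6 arms and for all chromosomes (dashed). The lines of 3p and 5q lie below the dashed line and those of 3q, 20q and 20p above it in each class of both replicates.

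The ChIP libraries gave a further measure of these arms. The tags in the 10 kb around a peak, without the peak itself, come from libraries other than the input. They are not the tags counted at the peak, although they include neighbouring peaks. They are not free of the choice of peaks, because no BED peak of replicate 1 had a fold over the local region below 4.0. A site with many surrounding tags could then enter the list only with many tags at the peak. In replicate 1 their mean was 58.7 on 3p, 61.7 on 5q, 74.3 on 5p, 100.1 on 3q, 105.3 on 20p and 111.3 on 20q. In replicate 2 it was 37.0, 39.1, 46.6, 63.4, 68.6 and 72.5. Both replicates, which are separate libraries, thus ranked the arms in the same order. The long to short ratio was 1.71 in both replicates for chromosome 3, 0.831 and 0.838 for chromosome 5, and 1.06 in both for chromosome 20. Among the 41 units, 20q ranked 1st and 20p 2nd in both replicates and 3p ranked 37th.

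Since peaks lay closer together on some arms than on others, the same quantity was taken at isolated peaks. Peaks whose middles lay close together were taken as the same site. Isolated peaks had no other site of either replicate with its middle within 5000 bp. They made up 49.0% of replicate 1 peaks on 3p, 39.3% on 3q and 31.3% on 20q. At such isolated peaks the mean of the surrounding ChIP tags was 37.7 on 3p and 60.9 on 3q in replicate 1, and 23.4 and 38.2 in replicate 2. It was 45.6 on 5p and 38.1 on 5q in replicate 1, and 28.5 and 24.3 in replicate 2. The long arm thus remained higher than the short arm on chromosome 3 and lower on chromosome 5 at these peaks, with no interval for the ratio. On chromosome 20 the order turned, with 61.1 on 20p and 58.4 on 20q in replicate 1 and 37.9 and 37.0 in replicate 2.

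Over the 41 units, input tags per peak and the ChIP tags around a peak rose together, with Spearman's rho of 0.901 in replicate 1 and 0.895 in replicate 2. Input tags per peak also rose with peaks per Mb (rho 0.828 and 0.790) and with ChIP tags per peak (0.899 and 0.915). These are descriptions over arms that share their libraries, and base composition and chromatin can vary along with all of these quantities. With the constant at peaks without input read as 0, 20p exceeded 3p by a ratio of 2.61 and 2.51 in input tags. The surrounding ChIP tags had a narrower range, with means of 105.3 on 20p and 58.7 on 3p in replicate 1. That contrast rests on this reading of the constant. In the scaled input column as deposited, the means in replicate 1 were 0.910 on 20p and 0.504 on 3p, a range much like that of the surrounding ChIP tags.

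**Figure D4:**
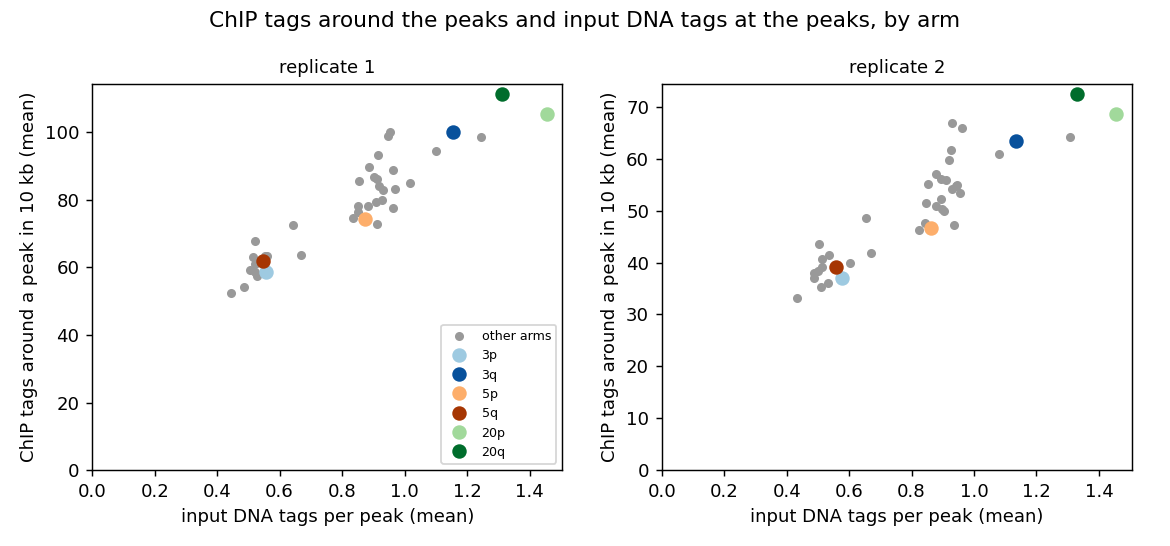
Mean ChIP tags in the 10 kb around a BED peak (y axis) against mean input DNA tags per peak (x axis) for 41 arms or whole acrocentric chromosomes, replicate 1 on the left and replicate 2 on the right. Arms 3p and 5q lie in the lower left group, 5p in the middle group, and 3q, 20p and 20q at the upper right in both panels.

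Next, the density of sites was examined. Per Mb between the outermost peaks of an arm, the narrowPeak list of replicate 1 held 26.4 peaks on 3p (25.3 to 27.5), 27.0 on 5p (25.5 to 28.6) and 27.2 on 5q (26.3 to 28.1). It held 49.3 on 3q (48.0 to 50.7), 52.4 on 20p (49.6 to 55.2) and 61.5 on 20q (58.9 to 64.2). In replicate 2 the densities were 19.7, 18.6, 19.7, 34.4, 38.3 and 48.2 peaks per Mb in the same order. The arms 3p, 5p and 5q were therefore sparse and the others dense in both lists, and 5p was sparse although its input was close to that of the median chromosome.

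The long arm of chromosome 3 had 1.87 times as many peaks per Mb as the short arm in replicate 1 (1.78 to 1.96) and 1.74 times as many in replicate 2 (1.65 to 1.85). On chromosome 20 the ratio was 1.17 (1.10 to 1.26) and 1.26 (1.16 to 1.36). No difference was detected on chromosome 5, where the ratio was 1.01 (0.945 to 1.08) and 1.06 (0.983 to 1.15). Density varied more along an arm than input did. The 10 Mb windows of 3p held 90 to 515 narrowPeak peaks in replicate 1 and those of 3q held 372 to 690. Without the first and last 10 Mb of each arm, the mean ratio over both lists was 1.52 on chromosome 3 and 1.54 on chromosome 20. Arms 20p and 20q spanned only 26.2 Mb and 33.4 Mb, so this cut removed most of each. The value for chromosome 20 therefore describes short inner stretches and not whole arms. The number of genes per arm, which may vary with the number of sites, was not used here.

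ChIP tags per peak followed the same division with smaller differences. The mean in replicate 1 was 18.5 tags on 5q, 18.7 on 3p, 20.3 on 5p, 24.2 on 3q, 25.5 on 20p and 26.4 on 20q, and in replicate 2 it was 13.8, 13.9, 15.1, 17.7, 19.2 and 19.6. The medians ran from 16 to 21 tags in replicate 1 and from 11 to 16 in replicate 2. The long to short ratio of the means was 1.29 (1.27 to 1.31) and 1.28 (1.26 to 1.30) on chromosome 3, 0.909 (0.894 to 0.924) and 0.916 (0.895 to 0.937) on chromosome 5, and 1.03 (1.02 to 1.05) and 1.02 (1.004 to 1.04) on chromosome 20. The peaks had been called on these tags, so the ratios describe the lists. Tags varied more between peaks than counting allows, and with intervals widened by that dispersion the chromosome 20 ratio was no longer called, whereas those of chromosomes 3 and 5 were. Medians carried no interval. On chromosome 5 they tied at 16 tags in replicate 1 and were 12 on 5p and 11 on 5q in replicate 2.

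Strong sites were unevenly spread over the arms. Peaks with at least 50 ChIP tags in replicate 1 numbered 311 on 3q, or 8.01% of its BED peaks, but 19 on 3p, or 1.03%, compared with 3718 or 4.41% over all chromosomes. They numbered 184 on 20q (10.8%), 97 on 20p (8.60%), 36 on 5p (3.76%) and 19 on 5q (0.692%). In the shallower replicate 2 they numbered 53 on 3q (1.82%), 2 on 3p (0.148%), 40 on 20q (2.84%), 31 on 20p (3.53%) and 2 on 5p (0.299%), compared with 604 or 0.951% over all chromosomes. None of the 1964 peaks of 5q reached 50 tags in replicate 2, which allows a share of up to 0.153%. Counting both peaks and tags, the ChIP tags within peaks per Mb of arm were 383.5 on 3p and 899.1 on 3q in replicate 1 and 208.0 and 493.8 in replicate 2.

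**Figure D5:**
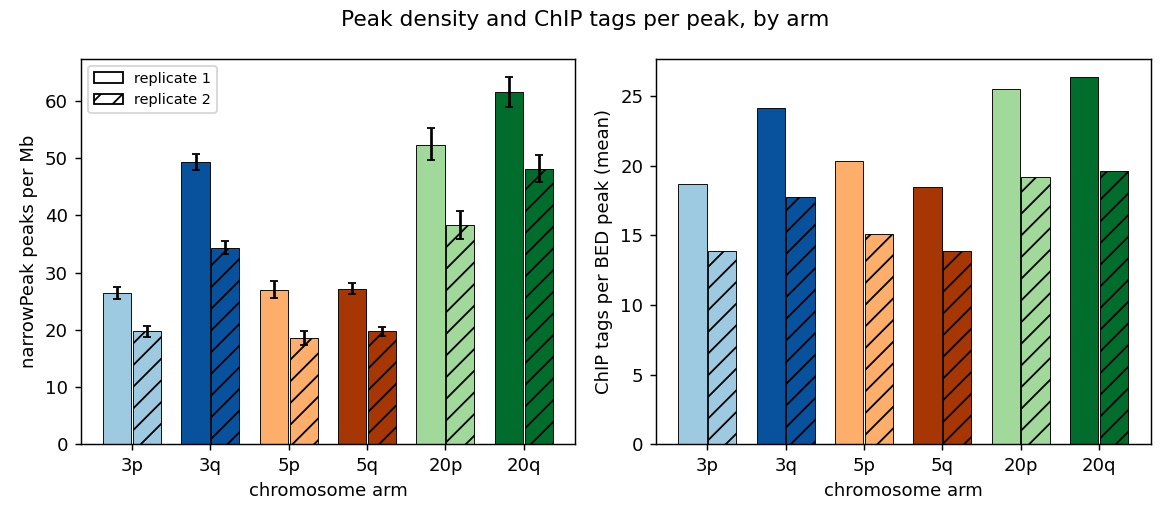
NarrowPeak peaks per Mb of arm (left, with exact 95% counting intervals) and mean ChIP tags per BED peak (right) for each arm, plain bars for replicate 1 and hatched bars for replicate 2. Arms 3q, 20p and 20q exceed 3p, 5p and 5q in both measures and both replicates.

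In contrast to the counts, the fold enrichment that the authors' peak caller gave each narrowPeak peak was nearly level. Its median lay between 7.37 and 7.98 on the 6 arms in replicate 1 and between 7.06 and 8.23 in replicate 2, with 20q highest in both. Fold over the surrounding region, from the BED lists, went the other way from tags. Its median was 15.7 on 3p and 10.8 on 3q in replicate 1, and 18.5 and 12.5 in replicate 2. For 5p and 5q it was 13.3 and 14.9, and 15.4 and 17.3. A peak on 3p thus held fewer tags than a peak on 3q but stood further above its surroundings. These surroundings include neighbouring peaks, which lay closer together on 3q. The fold was not taken at isolated peaks alone.

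Peaks also differed in spacing and width. The median distance between neighbouring peaks in replicate 1 was 13.4 kb on 3p, 11.9 kb on 5q and 10.7 kb on 5p, compared with 7.16 kb on 3q, 6.76 kb on 20p and 5.28 kb on 20q. The median width of narrowPeak peaks was narrowest on 3p, with 267 bp in both replicates, and widest on 20q, with 304 bp and 305 bp. Peaks of 1000 bp or more made up 0.168% of 3p and 1.30% of 3q in replicate 1 and 0.169% and 0.808% in replicate 2. Sites on 3q, 20p and 20q were therefore closer together and wider at the same time.

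Recovery in the other replicate was examined last among the measures of whole arms. Over all chromosomes, 65.3% of replicate 1 narrowPeak peaks overlapped a replicate 2 peak by at least 1 bp, and 88.5% of replicate 2 peaks overlapped a replicate 1 peak. On 3p, 1542 of 2374 replicate 1 peaks were recovered (65.0%, exact 95% interval 63.0% to 66.9%), compared with 3117 of 5150 on 3q (60.5%, 59.2% to 61.9%). The shares were 61.7% on 5p, 62.9% on 5q, 65.4% on 20p and 70.2% on 20q. In the other direction they lay between 86.8% on 3p and 90.8% on 20p. In replicate 1, 3q was lowest and 20q highest among the 6 arms. The intervals of 3q, 5p (58.9% to 64.4%) and 5q (61.3% to 64.5%) lay below the share of the whole list. That of 20q (68.2% to 72.2%) lay above it. The difference of 20q minus 20p was 4.76 percentage points (1.56 to 7.96) in replicate 1 and -0.221 (-2.51 to 2.06) in replicate 2. The difference between 3p and 3q in replicate 1 turned with the list used, since it was -4.43 percentage points (3q minus 3p) for narrowPeak peaks and 4.36 for BED peaks.

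For each arm the strongest regions were then listed by the lower of the 2 replicates' ChIP tags per 10000000 tags of the library, among regions with a BED peak of both and no input peak. On 3p the leading region was chr3:5065069-5065294, with 60 tags in replicate 1 and 42 in replicate 2, and no input tag. It was followed by chr3:50273177-50273393, with 60 and 51 tags, and chr3:50337011-50337233, with 60 and 35 tags. On 3q the leading region was chr3:99979545-99979786, with 105 and 73 tags and 1 input tag. The next were chr3:155588101-155588328, with 99 and 67 tags and 1 input tag, and chr3:186288151-186288390, with 99 and 72 tags and no input tag. Each of the 3 regions on 3q thus exceeded each of those on 3p in both replicates, and their ChIP tags in the surrounding 10 kb, 159 to 218 in replicate 1, exceeded the 86 to 135 of the 3p regions.

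On 5p the strongest region was chr5:32313188-32313410, with 81 and 58 tags. It was followed by chr5:43313598-43313826, with 77 and 49 tags, and chr5:9046914-9047138, with 69 and 49 tags. On 5q the strongest was chr5:110848236-110848466, with 58 and 35 tags, followed by chr5:67729979-67730259 with 55 and 36 and chr5:137878916-137879165 with 54 and 42. None of these 6 regions held an input tag in either list. Although 5q was the longest of the 6 arms, its leading regions were the weakest in replicate 1.

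On 20p the strongest region was chr20:3748441-3748662, with 110 and 77 tags. The region chr20:3792409-3792624 had 109 and 91 tags, and chr20:382528-382751 had 95 and 64. None of them held an input tag. On 20q the strongest was chr20:45318133-45318475, with 120 and 85 tags and 1 input tag in replicate 1 only. It was followed by chr20:34652680-34652913 with 99 and 71 tags and chr20:49262147-49262423 with 94 and 82, each with 1 input tag.

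The region with the most input tags was also identified on each arm. On 3p this was chr3:73159844-73160070, which overlapped an input peak and carried 116 and 106 ChIP tags over 30 and 24 input tags, a fold over input of 6.86 and 12.9. On 20p it was chr20:21377220-21377502, with 8 and 7 input tags and 20 and 14 ChIP tags, and on 20q chr20:33699013-33699224, with 7 input tags in both lists and 41 and 17 ChIP tags. On 3q it was chr3:138327426-138327663, with 6 input tags and 14 ChIP tags in both. On 5p and 5q the highest value was 4 input tags, shared by 4 regions on each. The region on 3p thus held several times the input tags of the leading region of any other arm.

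The peaks called in input DNA itself were few on these arms. There were 3 on 3p, 7 on 3q, 1 on 5p, 5 on 5q, 9 on 20p and 8 on 20q. Per Mb this was 0.0333 on 3p (95% interval, 0.00687 to 0.0974) and 0.0671 on 3q (0.0270 to 0.138), which did not separate them. The densities on 20p, 0.343 (0.157 to 0.651), and 20q, 0.240 (0.103 to 0.472), lay above that of 3p with no overlap of the intervals. The interval of 20q did overlap those of 3q and of 5p (0.000554 to 0.122). Arm lengths were those between the outermost ChIP peaks, and whether input peaks lay beyond them was not examined. Of the 17 input peaks on chromosome 20, 9 lay within 10 Mb of the boundary. ChIP peaks that overlapped an input peak were fewer still, with 1 on 3p in each list, 1 on 20p in replicate 2 and none on chromosome 5. Without them the mean input ratio of the arms was 2.08 on chromosome 3 and 0.910 on chromosome 20. On chromosome 5 nothing was removed and the ratio stayed at 0.636.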

How the data were processed

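The authors deposited peak lists called for each sample separately, in hg19 according to the submitters' processing notes. Per the study's methods, MACS within Strand NGS was run with input DNA as comparison. The aligner and the handling of duplicates are not given in the sources used here. The deposited narrowPeak lists gave a fold enrichment ratio for each peak, with −log10 p and −log10 q values and a score. The authors' BED lists, read by position because the header was displaced, gave a tag count for each peak beside its score, its signal per 10000000 tags, the signal of scaled input, fold ratios over input and the local region, and p-values. The caller of the BED lists is not given in the sources used here.

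Whole input tags were recovered from the deposited tag count and fold over input, since within a tolerance of 0.05 tag the quotient was either a whole multiple of 1 tag or a constant of 0.5 tag for 100% of replicate 1 and 99.997% of replicate 2 peaks. The constant, at 46.1% and 46.9% of peaks, was below 1 tag and was read as 0 input tags. Tags around a peak were recovered from the fold over the 10 kb region and rounded to whole tags. Their check allowed 2% of the count, which larger counts meet after any rounding, so it was weaker than that for input. Intervals of ratios were exact conditional intervals for 2 Poisson rates (scipy 1.17.1, Python 3.11.15, pandas 2.3.3). They were checked on simulated data only, which does not show their coverage in these data, where tags varied more than counting allows. In replicate 1, the variance between peaks ran from 1.08 times the mean on 5q to 2.00 times on 3p for input tags. For ChIP tags it ran from 4.31 times on 5q to 10.1 times on 20p. The chromosomes, arms and measures were chosen with earlier results of these data known. Regions were named by a rule: the 3 strongest shared regions per arm, and the region with the most input tags. Gene lists, motifs and sequences need a genome or annotation in hg19 and were not analysed here. Alternatives concerned the peaks used, the boundary, the list, the overlap and the interval.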

Additional observations from a re-analysis of the deposited data

How the results depend on the processing

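The arm differences in input tags per peak on chromosomes 3 and 5 kept their direction and their call under each alternative run. So did those in peak density on chromosomes 3 and 20, and the density of chromosome 5 remained uncalled. Some alternatives could hardly change a call. Moving the boundary changed the arm of no peak, and leaving out peaks on input peaks removed at most 1 peak per arm and list. The input ratio of chromosome 20 (0.909 as the mean of both lists) was no longer called with equal weight for each decile of ChIP tags (0.945), without the window with the most input tags (0.958) or within 10 Mb of the boundary (0.979). The ratio of ChIP tags per peak was no longer called on chromosome 20 when the interval was widened by the dispersion (1.03). With medians, which carried no interval, that ratio was 0.957 on chromosome 5, with a tie in replicate 1. The ratio of ChIP tags around the peaks (1.71 on chromosome 3) was 1.69 on chromosome 3 and 1.06 on chromosome 20 at peaks found in both replicates, and 1.63 on chromosome 3, 0.844 on chromosome 5 and 0.965 on chromosome 20 at isolated peaks, which reversed chromosome 20. Leaving out either replicate could not undo a call, since a call needed the lists of both, and the density of chromosome 5 stayed uncalled. The input ratio was then 1.96 or 2.08 on chromosome 3, 0.627 or 0.645 on chromosome 5 and 0.903 or 0.915 on chromosome 20. The difference in recovery between the arms of chromosome 3 reversed in replicate 1 with BED lists (4.36 percentage points) and in replicate 2 with a reciprocal overlap of 50% (-2.23), and was 4.06 in replicate 2 with BED lists. The causes were not tested, beyond what the choice of peaks itself changes. With the scaled input column as deposited, the mean ratio was 1.49 on chromosome 3, 0.782 on chromosome 5 and 0.920 on chromosome 20, each with the same call. The windows beside the boundary, the isolated peaks, the deposited scaled column, the widened interval for ChIP tags, the limit on ChIP tags, the arms without their ends and the alternatives for recovery and, other than leaving out a replicate, for the median chromosome were chosen after seeing the data. No paired analysis was possible because 1 group alone carries replicate numbers.

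Depth limits single sites most, since an average peak held about 1 input tag and comparisons rest on sums over many peaks. Input was known at ChIP peaks alone and not between them. With 1 input library and 1 line, no spread between cultures is available for the input.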
